A study of Rattus norvegicus with 6 samples.

Results

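The ubiquitin and proteasome system of the rat brain was followed here through 152 loci of the 24746 in the deposited transcriptome annotation. A locus was a member when a transcript assembled there carried a reference gene name starting with Ube, Ubr, Usp, Rnf, Trim, Fbx, Cul, Psma to Psmg, Herc, Otu or Klhl, with Ube4a and Ube3c excepted. By name, 16 loci hold ubiquitin-conjugating enzymes (Ube2), 94 hold ligases and their substrate adaptors, 24 hold enzymes that remove ubiquitin (Usp and Otu) and 18 hold subunits or an inhibitor of the proteasome. A gene name was given at 8336 loci in all, so a gene of the system with no name in the annotation, or with a name outside these prefixes, is not counted. The names were given to loci and not to reads, and 27 of the 152 loci hold several gene names, whose counts cannot be separated at the gene level.

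Whole brain polyA RNA came from 6 naïve male rats of a pair of inbred strains, 3 of BN-Lx/CubPrin (BNLx), a Brown Norway congenic that carries the polydactyly-luxate trait, and 3 of SHR/OlaIpcvPrin (SHR), the spontaneously hypertensive rat. No animal was treated, each library carries its own label, and an age is not given in the sources used here. The comparison asked which transcripts differ between the strains, at rest, in the whole brain. In such bulk tissue, fewer cells of a type and less RNA per cell cannot be told apart, and the libraries do not record strand, so a gene and one that overlaps it on the other strand cannot be told apart either. An exon of another locus overlapped 46 of the 152 members.

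Ubiquitin is a small protein that is attached to other proteins in a relay. An activating enzyme (E1) loads it onto a conjugating enzyme (E2), and a ligase (E3) chooses the protein that receives it. Chains of ubiquitin can send a protein to the 26S proteasome, a barrel of alpha and beta subunits (Psma and Psmb) whose ends are closed by a cap of ATPase subunits (Psmc) and other subunits (Psmd), while deubiquitinating enzymes take ubiquitin off again. In neurons the system is known for shaping synapses, clearing damaged proteins and guiding axons.

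Of the 152 members, 142 passed the filter of at least 50 counts in 2 of the 3 libraries of at least 1 strain, among 14471 tested genes. The 10 that did not were Ube2l6, Ube2u, Klhl30, Klhl38, Rnf113a1, Trim63, Ube3d, Psmb9, Otud6a and Usp51. Of these, Trim63, Klhl30 and Klhl38 had mean levels of 0.782, 0.708 and 0.537 TPM (a level per transcript length, scaled to the same total in every library). The mean of Klhl30 rests on BNLx replicate 3 at 2.77 TPM, since the other 5 libraries were between 0.19 and 0.41 TPM. Rnf113a1 had no count in any library, which allows up to 3 counts per library, or 0.0696 to 0.262 CPM (counts scaled to library size). Psma3l, Rnf11l1, Ube2q2l and Rnf113a1 are named as copies or close relatives of other genes, so how reads were split between them and their relatives is uncertain.

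Total expected counts ran from 11747048 to 32826625 in BNLx and from 21745966 to 41333078 in SHR. The libraries did not all resemble others of their strain. Over tested genes, log2 CPM correlated at r = 0.978 between BNLx replicates 1 and 2 and at 0.984 between SHR replicates 2 and 3, but BNLx replicate 3 correlated with replicates 1 and 2 of its strain at only 0.915 and 0.896, and SHR replicate 1 with replicates 2 and 3 at 0.926 and 0.935. Of the marker lists checked, 4 of 7 neuronal markers, 2 of 5 for astrocytes, 4 of 5 for microglia, 1 of 5 for endothelium and 1 of 5 for choroid plexus have a named locus. Their summed TPM ranged from 2544 to 4937 for neurons, 692 to 1417 for astrocytes (highest in SHR replicates 2 and 3) and 145 to 221 for microglia, and Kcnj13 of the choroid plexus from 2.58 to 26.7. None of the markers listed for red cells, pituitary, skeletal muscle and liver has a named locus here, so these tissues were not checked. Results that rest on the pair of libraries that stand apart are therefore also given without them. Lanes were shared by 3 or by all 6 libraries, but the sources used here do not say which ones went together. The p-values set the difference between the strains against the spread between these libraries. In what follows, per-library values are listed as BNLx replicates 1, 2 and 3 and then SHR replicates 1, 2 and 3.

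The proteasome genes stood highest of the functional groups. Over loci with a single gene name, the median of the mean TPM was 127 for 17 proteasome loci, 74.2 for 14 conjugating loci, 31.1 for 75 ligating loci and 19.2 for 19 removing loci, against a median of 20.6 over all tested genes. Of the 17 proteasome loci, 12 lay above 100 TPM, as did 6 conjugating, 8 ligating and 1 removing locus. These levels describe loci of different length and annotation and were not tested against each other.

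**Figure D1:**
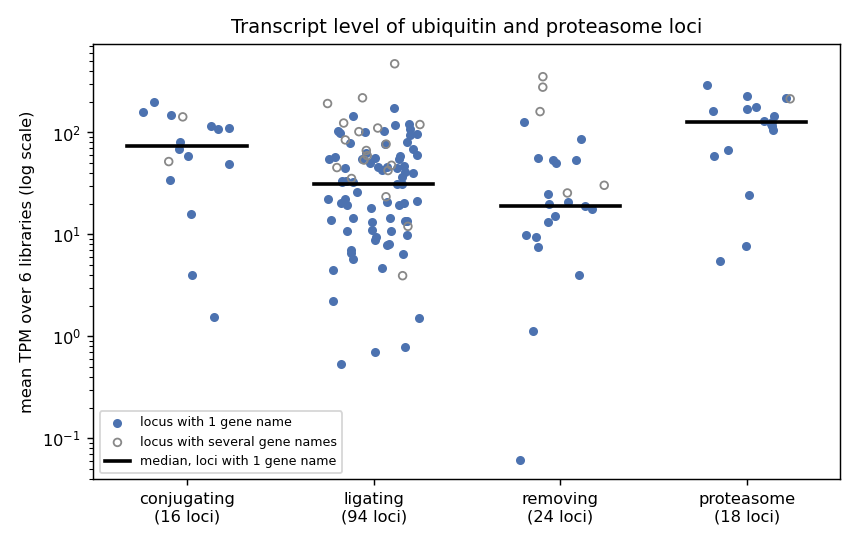
Mean TPM over the 6 libraries (log scale) of each conjugating, ligating, removing and proteasome locus, with filled points for loci that hold 1 gene name, open points for loci that hold several, and a bar at the median of the filled points; the locus with no counts is not drawn but enters the median. Proteasome loci have the highest median at 127 TPM and removing loci the lowest at 19.2 TPM.

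The catalytic core of the proteasome was represented by Psmb7, Psmb4 and Psma7, the most abundant of the group. Psmb7, which carries the trypsin-like site, had 325, 284, 272, 315, 259 and 284 TPM across the libraries. Psmb4, a structural beta subunit, had 260, 222, 222, 270, 202 and 204 TPM, and Psma7, an alpha subunit, had 242, 233, 215, 253, 179 and 196 TPM. In all 3 genes SHR replicate 1 lay within or above the range of BNLx, and in Psmb4 and Psma7 SHR replicates 2 and 3 lay below it. The ATPase subunits of the cap were at similar levels, with means of 214 TPM for Psmc1, 164 for Psmc2 and 171 for Psmc3.

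Psmb8 and Psmb9, which replace catalytic subunits in the immunoproteasome of immune cells and of cells exposed to interferon, were low in these brains. The mean level was 7.77 TPM for Psmb8 and 5.53 TPM for Psmb9, both on chromosome 20. The median over the 17 proteasome loci with a single gene name, which include both, was 127 TPM. Psmb8 had 6.32, 6.70, 5.85, 11.3, 9.83 and 6.64 TPM and Psmb9 had 4.43, 4.51, 4.47, 7.87, 5.41 and 6.48 TPM. Both were highest in SHR replicate 1, where the microglial markers also had their highest sum (150, 152, 145, 221, 174 and 159 TPM). The part of microglia in these levels was not tested. The strain difference of Psmb8 was 0.46 ± 0.28 (log2, standard error), with an adjusted p of 0.663 in edgeR, and Psmb9 was below the filter.

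For the strain comparison, the rounded expected counts were fitted with the edgeR quasi-likelihood test and p-values were adjusted over all tested genes. None of the 142 tested members was called at an adjusted p of 0.05, where 1.02% of all tested genes were. At an unadjusted p under 0.05, edgeR gave 9 members (7 lower and 2 higher in SHR), where 10.2% of all genes had such a p. DESeq2 called 2 members, Ube2j1 and Trim59, and 3.76% of all genes. The limma test on log2 TPM called no member at either pseudocount, and its share over all genes is not given here. The 95% interval of the log2 fold change (SHR over BNLx) lay within 1 in either direction for 127 of the 142 members and within 0.5 for 70, with a median standard error of 0.14.

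By group, the share of genes with lower values in SHR varied, where 49.9% of all tested genes were lower. Lower values were seen in 14 of 17 proteasome genes (median log2 fold change -0.16), in 12 of 14 conjugating genes (-0.08), in 42 of 89 ligating genes (0.01) and in 9 of 22 removing genes (0.08), against a median of 0.00038 over all genes. These are counts of signs from genes of the same 6 libraries and not of independent observations. CPM did not overlap between the strains in 21 of the 142 members, 14 of them lower in SHR, where this was so for 17.5% of all genes.

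**Figure D2:**
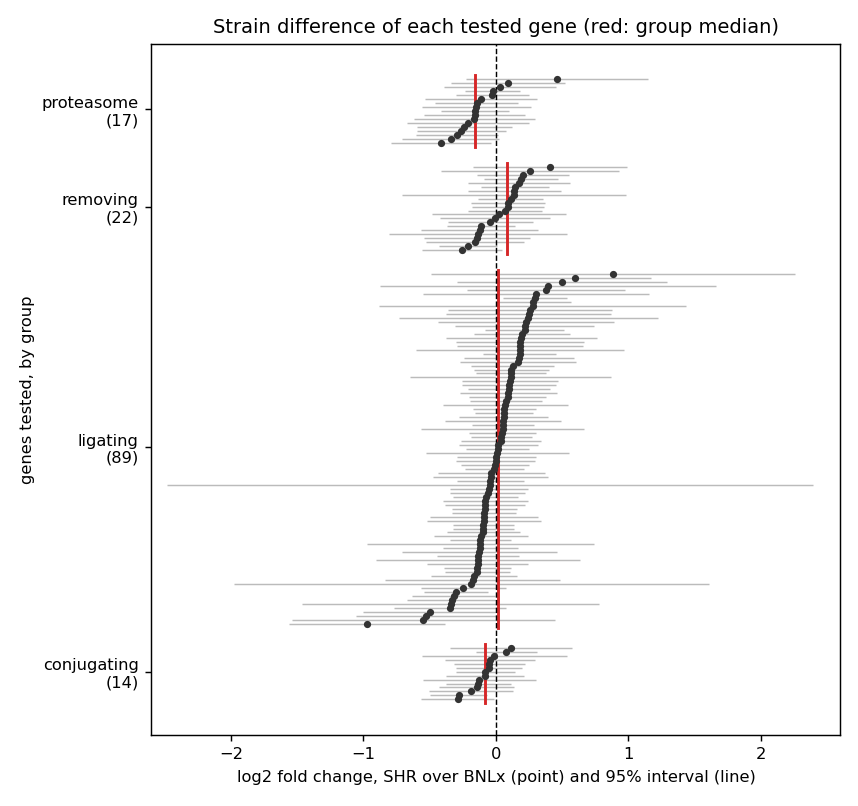
Log2 fold change of SHR over BNLx (point, x axis) with its 95% interval (line) for each of the 142 tested members, ordered within the groups on the y axis, with a red line at each group's median. The medians are -0.16 for proteasome, 0.08 for removing, 0.01 for ligating and -0.08 for conjugating genes, and most intervals cross 0.

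Among proteasome genes the lower values in SHR came from replicates 2 and 3. Set against the BNLx mean on the log2 CPM scale, 16 of the 17 genes were below it in SHR replicate 2 (median difference -0.34) and 17 in SHR replicate 3 (-0.28), but only 6 in SHR replicate 1 (0.06). Within BNLx, 3 genes were below the mean in replicate 1, 9 in replicate 2 and 11 in replicate 3 (median -0.10). Summed over the loci with 1 name, the proteasome genes had 2320, 2182, 2181, 2350, 1934 and 1992 TPM, so that the highest and the lowest sums were both in SHR. The astrocyte markers found, Slc1a2 and Gja1, summed to 703, 738, 692, 743, 1417 and 1151 TPM, highest in SHR replicates 2 and 3. The part of cell content in the proteasome values was not tested.

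**Figure D3:**
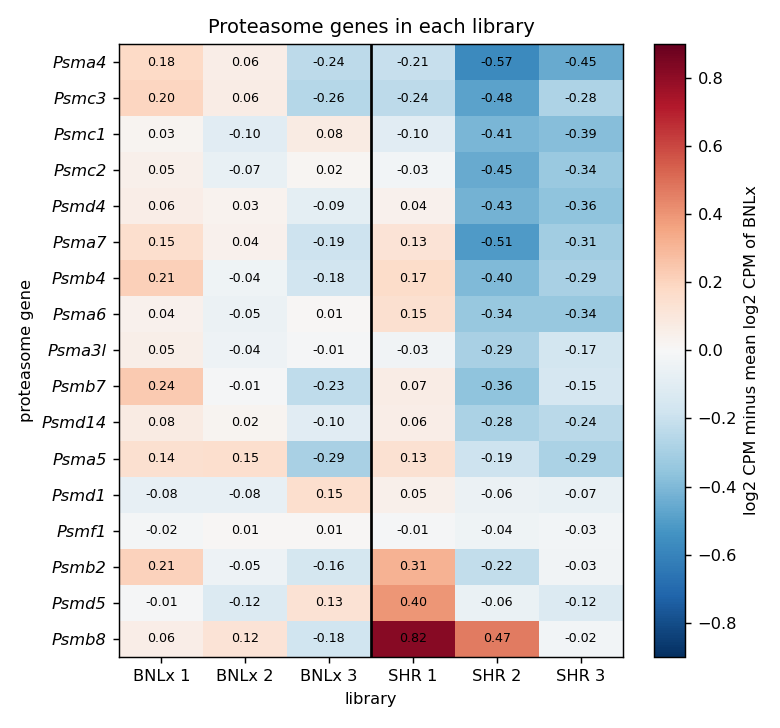
Log2 CPM of each tested proteasome gene (rows) in each library (columns), less the mean log2 CPM of the 3 BNLx libraries, with the value printed in each cell and blue below and red above that mean. SHR replicates 2 and 3 are below it in 16 and 17 of the 17 genes, SHR replicate 1 in 6.

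Psma4, an alpha subunit of the core on chromosome 8 (rn6, chr8:59532389-59539920, plus strand), had the lowest p of the group. Its CPM was 95.4, 88.0 and 71.7 in BNLx and 73.3, 56.9 and 61.6 in SHR. The strains overlapped, since BNLx replicate 3 was below SHR replicate 1. The log2 fold change was -0.41 ± 0.16 (standard error), with an edgeR p of 0.0365 and an adjusted p of 0.437.

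The ATPase subunits Psmc1, Psmc3 and Psmc2, which unfold proteins at the entrance of the barrel, came next. Psmc1 (a locus that also carries a second, unnamed reference entry) had 165, 152, 171, 151, 122 and 124 CPM, the only tested proteasome gene whose strains did not overlap, with a log2 fold change of -0.29 ± 0.13 and an edgeR adjusted p of 0.506. Psmc3 had 152, 138, 111, 112, 94.8 and 109 CPM (-0.34 ± 0.15, adjusted p of 0.516 in edgeR). Psmc2 had 121, 112, 118, 115, 85.4 and 92.5 CPM (-0.26 ± 0.14, adjusted p of 0.599 in edgeR). In each of the 3 genes SHR replicates 2 and 3 were below all BNLx libraries.

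Other parts of the particle varied in the same libraries or hardly at all. Psmd4, a cap subunit that binds ubiquitin chains, had 80.4, 78.6, 72.4, 79.0, 57.3 and 59.9 CPM, and Psmd14, the cap's own deubiquitinating enzyme, had 50.1, 48.4, 44.3, 49.7, 39.1 and 40.2 CPM. In both, SHR replicate 1 lay among the BNLx libraries and SHR replicates 2 and 3 below them. Psmf1, a proteasome inhibitor, had 44.9, 45.8, 45.8, 45.2, 44.2 and 44.7 CPM, with a log2 fold change of -0.02 and a 95% interval from -0.23 to 0.18. Psmd1, the large scaffold of the cap, had 140, 140, 164, 153, 142 and 141 CPM, with a log2 fold change of -0.03 and an interval from -0.30 to 0.25. Psmb2 (0.03), Psmd5 (0.09), a chaperone of cap assembly, and Psmb8 (0.46) were the 3 with a log2 fold change above 0.

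Without SHR replicate 1 and BNLx replicate 3, 44 of 141 members were called by edgeR at an adjusted p of 0.05, 17 higher and 27 lower in SHR, where 31.5% of all genes were called. Of the 17 proteasome genes, 11 were then called, and all 11 were lower, where 15.0% of all genes were called and lower. The median log2 fold change of the group moved from -0.16 to -0.37. Psma4 (-0.64, adjusted p of 0.00426), Psmc3 (-0.51), Psma7 (-0.51), Psmb4 (-0.45), Psmd4 (-0.44), Psmc2 (-0.39), Psma5 (-0.38), Psmb7 (-0.38), Psmc1 (-0.37), Psma6 (-0.34) and Psmd14 (-0.32) were those called. Each strain then rests on 2 libraries that were kept because they resembled each other. Leaving out SHR replicate 1 alone gave a group median of -0.26, and leaving out SHR replicate 2 alone gave -0.08.

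**Figure D4:**
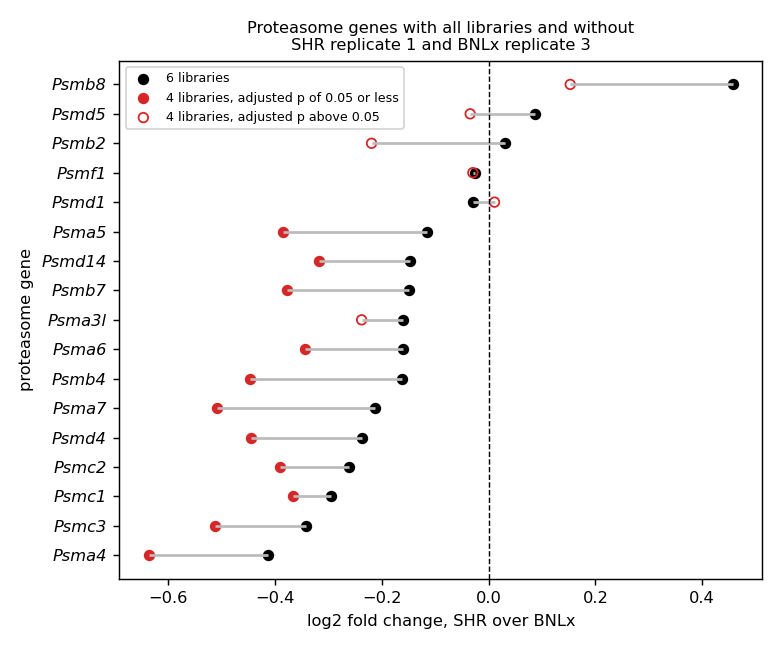
Log2 fold change of SHR over BNLx (x axis) of each tested proteasome gene in the edgeR fit of all 6 libraries (black) and in the fit without SHR replicate 1 and BNLx replicate 3 (red, filled where the adjusted p is 0.05 or less). No black point is called, and 11 of 17 red points are filled, all below 0.

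The promoters of 3 proteasome genes are shown, from 250 bases before to 50 bases after the start of the RefSeq gene on build GRCr8 (another build than the rn6 of the data). Psma4 is the gene with the lowest p, and Psmb2 and Psmd1 are the 2 of 15 matched proteasome promoters that hold TGACNNNGC, the core of the antioxidant response element through which proteasome genes are known to be induced, searched on both strands and set in capitals.
Psma4 (GRCr8, chr8:64236270-64236569, plus strand): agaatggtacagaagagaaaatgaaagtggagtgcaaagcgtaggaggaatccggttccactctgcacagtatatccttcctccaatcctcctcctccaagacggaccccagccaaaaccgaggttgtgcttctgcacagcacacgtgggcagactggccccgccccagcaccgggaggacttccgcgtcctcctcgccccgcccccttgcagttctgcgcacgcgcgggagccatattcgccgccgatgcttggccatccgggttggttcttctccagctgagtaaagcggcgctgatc
Psmb2 (GRCr8, chr5:144254808-144255107, plus strand): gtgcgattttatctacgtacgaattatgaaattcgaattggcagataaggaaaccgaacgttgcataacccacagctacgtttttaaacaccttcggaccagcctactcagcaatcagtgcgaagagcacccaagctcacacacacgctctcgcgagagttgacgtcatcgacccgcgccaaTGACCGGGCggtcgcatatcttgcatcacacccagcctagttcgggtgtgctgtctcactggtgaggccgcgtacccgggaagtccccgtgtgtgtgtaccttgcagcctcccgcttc
Psmd1 (GRCr8, chr9:94157721-94158020, plus strand): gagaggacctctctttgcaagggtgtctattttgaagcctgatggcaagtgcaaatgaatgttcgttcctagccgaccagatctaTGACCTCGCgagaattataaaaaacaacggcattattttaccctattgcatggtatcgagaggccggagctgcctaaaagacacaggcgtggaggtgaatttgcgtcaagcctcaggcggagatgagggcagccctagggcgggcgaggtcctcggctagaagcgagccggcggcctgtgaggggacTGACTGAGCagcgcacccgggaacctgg
The letters occur in 13.3% of the proteasome promoters and in 12.1% of 33469 promoters of the same length. A match is a description of the sequence, and the part of these letters in the levels of any gene was not tested.

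The conjugating enzymes were led by Ube2d3, Ube2n and Ube2r2. Ube2d3, a widely used partner of many ligases, had 197, 199, 207, 176, 207 and 204 TPM. Ube2n, which builds chains linked through lysine 63, had 144, 156, 182, 145, 164 and 167 TPM, and Ube2r2, a partner of cullin ligases, had 142, 147, 148, 154, 143 and 149 TPM. In these 3 genes the libraries of both strains overlapped in TPM. At the other end were Ube2q2l at 15.7 TPM, Ube2l6, which conjugates the interferon-induced modifier ISG15, at 4.0 TPM, and Ube2u at 1.56 TPM. The locus of Ube2f, a conjugating enzyme for NEDD8, at 142 TPM, also holds Ramp1 and Scly. Isoforms named Ube2f gave 18.7 TPM of it. Some assembled isoforms carry no gene name, also at loci with 1 gene name. Isoforms named Ube2e3 gave 0.833 of the 111 TPM at the Ube2e3 locus, which holds no other name. Here and below, the TPM of isoforms named for a gene is therefore not that gene's share of its locus.

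Ube2j1, an E2 in the membrane of the endoplasmic reticulum that serves the removal of misfolded proteins (rn6, chr5:48274477-48292760, plus strand), had the lowest p of the conjugating group. Its counts separated the strains, with 117, 116 and 118 CPM in BNLx and 97.1, 94.9 and 96.4 CPM in SHR. BNLx averaged 117 ± 1.06 CPM and SHR 96.1 ± 1.14 CPM (SD, n = 3 each). The log2 fold change was -0.28 ± 0.089, with an edgeR p of 0.0182 and an adjusted p of 0.336, and DESeq2 gave an adjusted p of 0.0166. On the TPM scale, which divides by the length of the isoforms, the same locus had 91.2, 101, 123, 84.9, 124 and 125 TPM, and limma gave a difference of 0.07 on the log2(TPM + 1) scale, opposite in sign. Its 2-exon isoform STRG.20047.5 had 33.8, 40.6, 43.4, 30.6, 19.6 and 25.6 CPM, with no overlap of the strains either.

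Ube2a, an E2 of histone H2B on the X chromosome, had 72, 79.3, 75.1, 69.3, 57.2 and 58.9 CPM, with no overlap of the strains. Its log2 fold change was -0.29 ± 0.11, with an adjusted p of 0.465 in edgeR. Ube2n (177, 188, 195, 165, 169 and 177 CPM) also showed no overlap, by a narrow margin, with a log2 fold change of -0.13 and a 95% interval from -0.38 to 0.11. Ube2d1, a close relative of Ube2d3, had 28.9, 27.6, 32.5, 29.1, 25.1 and 23.8 CPM and overlapping strains (-0.19, interval from -0.51 to 0.13). Without SHR replicate 1 and BNLx replicate 3, edgeR called 5 of the 14 conjugating genes, all lower in SHR, among them Ube2a, Ube2j1 and Ube2d3, where 31.5% of all genes were called and 15.0% were called and lower.

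The 94 ligating loci comprise 32 Rnf (RING finger proteins), 17 Klhl and 11 Fbxo (adaptors that bring proteins to ligases of cullin 3 and of cullin 1, respectively), 14 Trim, 5 Fbxl, 4 Cul, 3 each of Fbxw, Herc and Ubr, 1 Ube3 and 1 Ube4. The only Ube3 locus, Ube3d, had a mean of 2.22 TPM and was not tested. In the other families the medians of the mean TPM ran from 13.1 for Fbxl, 13.6 for Klhl and 13.7 for Herc to 60.2 for Fbxo, 73.8 for Cul and 77.8 for Fbxw. The highest locus, at 472 TPM, carries Rnf139, a ligase of the endoplasmic reticulum, together with Ndufb9 of the respiratory chain, and 26.0 TPM of it came from isoforms named Rnf139. The locus of Rnf11l1 followed at 219 TPM, the locus shared by the adaptors Fbxo44 and Fbxo6 at 192 TPM, and Rnf208, the highest ligase with a locus of its own, at 173 TPM.

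The cullins, the scaffolds of the largest family of ligases, were among the steadiest members. Cul1 had 143, 144, 139, 137, 141 and 144 CPM, and its log2 fold change of -0.01 had a 95% interval from -0.24 to 0.21. Cul3 had 139, 140, 142, 125, 135 and 134 CPM (-0.10, interval from -0.33 to 0.14), and Cul5 had 114, 125, 113, 115, 121 and 119 CPM (0.01, interval from -0.22 to 0.25). A difference between the strains beyond 0.33 on the log2 scale in either direction lies outside the interval of all 3. The locus of Cul5 also holds Rab39a, and 27.7 of its 47.6 TPM came from isoforms named Cul5. Cul9 varied more between libraries, with 107, 119, 77.1, 94.3, 153 and 148 CPM, where BNLx replicate 3 and SHR replicate 1 were the lowest libraries.

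Trim59 (rn6, chr2:165629918-165641573, minus strand), a membrane-bound ligase of the tripartite motif family assembled here as a single isoform of 3 exons, had the lowest gene-level p of all members. It had 18.1, 14.6 and 21.0 CPM in BNLx and 11.7, 8.34 and 7.15 CPM in SHR. Every SHR library was below every BNLx library, with means of 17.9 ± 3.23 and 9.07 ± 2.37 CPM (SD, n = 3 each). The log2 fold change was -0.98 ± 0.24 with a 95% interval from -1.56 to -0.39. The edgeR p was 0.00642 and the adjusted p was 0.219, and DESeq2 gave an adjusted p of 0.0167. Without SHR replicate 1 and BNLx replicate 3, edgeR gave an adjusted p of 0.00673, where 31.5% of all genes were called. The libraries of that fit were kept because they resembled each other within a strain.

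A few other ligase loci separated the strains without passing the edgeR threshold. Fbxo9, an adaptor of cullin 1 ligases, had 118, 121, 118, 89.4, 97.4 and 103 CPM (log2 fold change -0.30 ± 0.10, adjusted p of 0.364 in edgeR). Rnf32 had 24, 24.3, 25.1, 29.9, 29.3 and 30.7 CPM, higher in every SHR library (0.29 ± 0.099, adjusted p of 0.376 in edgeR). The locus that Rnf224 shares with Cysrt1 had 3.69, 3.49, 5.08, 7.13, 6.07 and 5.27 CPM (0.59 ± 0.24, adjusted p of 0.472 in edgeR). Of its 3.93 TPM, 0.17 came from isoforms named Rnf224. This locus overlaps that of Rnf208 on the other strand, which was at 173 TPM. In the stretch they share, reads of these loci cannot be told apart. In the 21 tested members whose strains did not overlap, the log2 fold changes ran from -0.98 in Trim59 to 0.59 at the locus of Rnf224 and Cysrt1. They were as small as 0.06 in Rnf103 and -0.08 in Ube2h.

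Some members varied with the libraries that stand apart, no more often than other genes. In 38 of the 142 members BNLx replicate 3 and SHR replicate 1 both lay below or both above the other 4 libraries, where 31.8% of all genes did so. They were below in 23 members and above in 15, and 28 of the 38 were among the 89 tested ligating genes. Fbxw7, the adaptor that sends Notch, Myc and cyclin E to degradation and is abundant in neurons, had 102, 141, 48.9, 60.7, 153 and 140 CPM. Its log2 fold change of 0.28 had a 95% interval from -0.88 to 1.43. The locus of Trim9, a ligase of axon branching in neurons, had 250, 258, 155, 152, 301 and 298 CPM. It also holds Pygl, and 6.62 of its mean of 120 TPM came from isoforms named Trim9, where isoforms without a name are not counted. Klhl34 had 22.4, 24.9, 6.70, 16.4, 45.6 and 38.2 CPM.

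Klhl13, an adaptor of cullin 3, showed the opposite order, with 31.6, 27.7, 69.0, 98.0, 35.4 and 37.9 TPM. Rnf128 had 11.7, 8.18, 17.1, 22.8, 10.3 and 12 TPM, again highest in BNLx replicate 3 and SHR replicate 1. In the same libraries the neuronal markers summed to 3988, 4937, 3187, 2544, 3716 and 3679 TPM, lowest in BNLx replicate 3 and SHR replicate 1. The part of cell content in these members was not tested.

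None of the further ligases known from the nervous system was called in the fit of all libraries. Fbxo2, an adaptor for glycoproteins found in neurons, had 74.4, 62.6, 89.4, 67.5, 44.5 and 48.3 CPM (log2 fold change -0.50, 95% interval from -1.003 to 0.01). Trim32, a ligase of muscle and of neural progenitors, had 97.0, 93.5, 92.0, 116, 95.6 and 94.8 CPM, and Trim2, a neuronal ligase of neurofilament light chain, had 280, 270, 261, 230, 331 and 351 CPM. The Trim2 locus also holds Mnd1, and 98.6 of its 111 TPM came from isoforms named Trim2. Fbxo7, an adaptor linked to inherited parkinsonism, had 57.7, 57.6, 54.0, 60.3, 46.4 and 53.1 CPM. Among the very large ligases, Herc1 had 244, 253, 282, 198, 386 and 345 CPM and Ubr4 had 215, 247, 342, 213, 377 and 349 CPM, both lowest in SHR replicate 1 of all 6 libraries. Ube4b, which extends ubiquitin chains, had 104, 107, 111, 108, 129 and 129 CPM (0.18, interval from -0.10 to 0.46). Without SHR replicate 1 and BNLx replicate 3, where 31.5% of all genes were called, edgeR called Fbxo2 (-0.57, adjusted p of 0.0115), Trim2 (0.31, 0.0202), Herc1 (0.56, 0.00563), Ubr4 (0.65, 0.00521) and Ube4b (0.28, 0.0193), but not Trim32 (-0.01, 0.961) or Fbxo7 (-0.22, 0.104).

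The enzymes that remove ubiquitin had 13 of 22 genes with higher values in SHR and none called. Their highest loci hold several genes. The locus of Otud7b at 353 TPM also holds Sv2a, a protein of synaptic vesicles, Sf3b4 and Mtmr11. Isoforms named Otud7b gave 22.2 TPM of it, and isoforms without a name are not counted. The locus of Usp11 at 278 TPM also holds Uba1, the main E1 enzyme of ubiquitin, with 108 TPM from isoforms named Usp11, and that of Otud5 at 160 TPM also holds Pim2 and Slc35a2. Usp5, which recycles free ubiquitin chains, led the loci with 1 name, with 114, 111, 125, 138, 133 and 135 TPM. Otud6a had at most 0.15 TPM in any library.

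Otud6b, a deubiquitinating enzyme linked to protein synthesis, had the lowest p of this group, with 53.3, 50.6, 51.4, 42.6, 45.8 and 45.6 CPM. All SHR libraries were below all BNLx libraries, with a log2 fold change of -0.21 ± 0.09 and an edgeR adjusted p of 0.497. Usp33, a partner of the Robo receptor in axon guidance, had 200, 210, 219, 153, 186 and 187 CPM (-0.26 ± 0.12, adjusted p of 0.557 in edgeR), also without overlap. Usp48 had 54.2, 58.2, 77.7, 59.2, 98.8 and 94.6 CPM (0.41 ± 0.24) and Usp37, a regulator of the cell cycle, had 38.8, 39.4, 43.3, 41.4, 50.1 and 46.9 CPM (0.19 ± 0.11), with edgeR adjusted p-values of 0.640 and 0.657. Without SHR replicate 1 and BNLx replicate 3, edgeR called 3 of the 22 removing enzymes, Usp48 (0.78), Usp24 (0.39) and Usp37 (0.31), all higher in SHR. In that fit 31.5% of all genes were called and 16.5% were called and higher.

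The isoforms of the members were more numerous than the loci. Of 704 quantified isoforms, 414 passed the filter, 292 from the original assembly and 122 added by aptardi, the program that predicts polyadenylation sites and gives a transcript another 3′ end. The tested loci had a median of 2 tested isoforms and at most 13. In the 99 loci with more than 1 tested isoform, the leading one took a median of 57.6% of the counts, and in 34 of them less than 50%. By edgeR at the study's threshold of an unadjusted p of 0.001, 1 of the 414 isoforms was called, where 1.00% of all tested isoforms were. At an unadjusted p under 0.05 there were 18, a count given without its share over all isoforms, and none at an adjusted p of 0.05. DESeq2 called 4 at the same p of 0.001, where it called 3.63% of all isoforms. Without SHR replicate 1 and BNLx replicate 3, edgeR called 10 of 380, where 3.88% of all isoforms were called.

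The called isoform was STRG.31105.2 of Psma4, which runs over rn6 chr8:59536504-59539920 on the plus strand in 3 exons. The full-length isoform STRG.31105.1 has 9 exons, and STRG.31105.2 starts within the gene and keeps as exon 2 of the introns that STRG.31105.1 removes. It had 13.1, 12.4 and 9.63 CPM in BNLx and 3.64, 3.67 and 3.17 CPM in SHR. The strains were far apart for their spread, with means of 11.7 ± 1.82 and 3.49 ± 0.28 CPM (SD, n = 3 each). The log2 fold change was -1.74 ± 0.23, with an edgeR p of 0.000358 and an adjusted p of 0.0582.

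The full-length isoform of Psma4 was not called. STRG.31105.1 had 82.2, 73.2, 62.6, 70.6, 52.3 and 57.5 CPM, with overlapping strains and a log2 fold change of -0.27 ± 0.18 (edgeR p of 0.180). Of the tested Psma4 counts, the short isoform took 13.8 ± 0.56% in BNLx libraries and 5.56 ± 0.87% in SHR libraries (SD, n = 3 each). Psma4 was the only 1 of 99 member loci whose isoform usage was called in the diffSpliceDGE test of edgeR (adjusted p of 0.0271), where 4.37% of all loci were called. On simulated counts made from these libraries, most loci that diffSpliceDGE called were unchanged ones. An unadjusted p under 0.05 was given to 13 member loci, a count without its share over all loci. The test of limma on voom weights called Psma4 (adjusted p of 0.0288), Otud6b (0.0120) and Rnf41 (0.0420), and 2.22% of all loci. Without SHR replicate 1 and BNLx replicate 3, diffSpliceDGE called 35 of 96 member loci, where 28.3% of all loci were called. The isoform's edgeR p rose above 0.001 when BNLx replicate 1 (0.00239), BNLx replicate 2 (0.00212), SHR replicate 1 (0.00150), SHR replicate 2 (0.00226) or SHR replicate 3 (0.00281) was left out, while its log2 fold change stayed between -1.87 and -1.66. The usage call was lost without BNLx replicate 1, BNLx replicate 2, SHR replicate 2 or SHR replicate 3 (adjusted p from 0.0689 to 0.150).

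**Figure D5:**
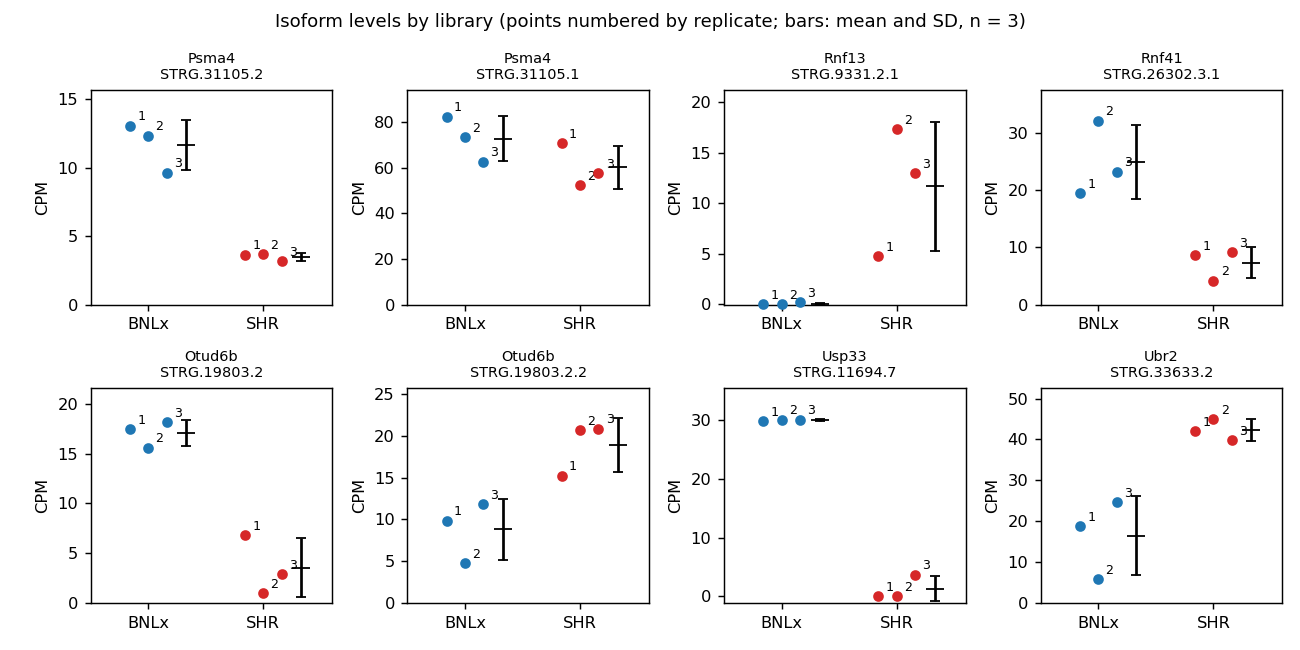
CPM (y axis, from 0 where no error bar goes below it) of 8 isoforms in BNLx (blue) and SHR (red), 1 point per library with its replicate number, and the mean with its SD (n = 3) in black. Psma4 STRG.31105.2 is at 9.63 to 13.1 in BNLx and 3.17 to 3.67 in SHR, while Psma4 STRG.31105.1 overlaps between the strains.

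Next in the usage test was Rnf13, with an adjusted p of 0.0563 in diffSpliceDGE of edgeR and of 0.817 in the voom test of limma. Rnf13, a ligase of endosomes and lysosomes (rn6, chr2:147779076-148096086, plus strand), has an aptardi isoform, STRG.9331.2.1, which ends 248 bases before its original transcript. It had 0, 0 and 0.158 CPM in BNLx and 4.74, 17.3 and 13.0 CPM in SHR, with an edgeR p of 0.00106, just above the threshold of 0.001. Its BNLx values are below the level of 3 counts in each library (0.0951 to 0.261 CPM), so no fold is given. The original transcript STRG.9331.2 had 61.0, 43.8, 77.3, 60.0, 36.7 and 34.1 CPM, and both ends together had 61.8, 43.8, 80.1, 64.8, 54.0 and 48.6 CPM. The strains overlapped in the sum and did not overlap in the shorter end.

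Otud6b and Rnf41 were called for usage by the voom test and not by diffSpliceDGE. At each, an original isoform and its aptardi isoform had the strains in opposite order. For Otud6b (rn6, chr5:28332924-28349927, minus strand), the original isoform STRG.19803.2 had 17.4, 15.6, 18.2, 6.81, 0.953 and 2.89 CPM. Its aptardi isoform STRG.19803.2.2, which ends 305 bases earlier, had 9.85, 4.79, 11.8, 15.2, 20.7 and 20.9 CPM. STRG.19803.2 was lower and STRG.19803.2.2 higher in every SHR library than in every BNLx library. The edgeR p-values were 0.0180 and 0.0271, and the adjusted p-values 0.409 and 0.487. Other Otud6b isoforms can share these ends, and counts were not summed by end.

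The locus of Rnf41, a ligase of receptor turnover, also holds Ankrd52, whose isoform STRG.26302.1 leads it with 87.1 to 151 CPM. The aptardi isoform STRG.26302.3.1, which ends 1025 bases beyond its original transcript and has no gene name of its own, had 19.6, 32.2, 23.3, 8.69, 4.19 and 9.19 CPM (edgeR p of 0.00380, adjusted p of 0.192). The original STRG.26302.3 had 4.47, 0, 4.02, 9.86, 13.4 and 9.97 CPM. The strains did not overlap in either, and the order of the strains was opposite in the longer and the shorter isoform. Other isoforms of the locus can share these ends, and counts were not summed by end.

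Usp33, Ubr2 and Usp13 were among the loci with the lowest usage p but were not called (diffSpliceDGE adjusted p of 0.142, 0.181 and 0.123 in edgeR), and the isoforms given here for them belong to the original assembly. Usp33 isoform STRG.11694.7, with 23 exons, had 29.9, 30.1, 30.1, 0, 0 and 3.68 CPM, while the named isoform STRG.11694.5 had 123, 114, 120, 104, 109 and 118 CPM. The edgeR p of STRG.11694.7 was 0.0568. SHR replicate 3 is the only SHR library with counts of it, so that leaving it out compares BNLx with counts of 0, and no p is given for that. Ubr2, a ligase that reads the amino end of proteins, has an isoform STRG.33633.2 of 43 exons with 18.8, 5.74, 24.7, 42.1, 45.0 and 39.8 CPM (edgeR p of 0.0385). It shares 40 introns with STRG.33633.1, which has the same number of exons and had 36.1, 34.5, 48.2, 24.2, 44.7 and 43.7 CPM. Usp13 isoform STRG.8910.2, which keeps 1 intron and skips 1 exon of the leading isoform, had 7.57, 9.92, 11.0, 5.71, 5.14 and 5.84 CPM (edgeR p of 0.0187).

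The remaining loci leading the usage test were Ube2c, Otud5, Trim33, Fbxo11 and Fbxo10, with edgeR adjusted p-values from 0.174 to 0.264. At the Ube2c locus the isoform in question, STRG.15297.3.2, carries the name 7SK, a small RNA, and had counts only in BNLx replicates 1 and 3 (5.32 and 8.21 CPM). At the Fbxo10 locus it was STRG.20362.5, which carries the name Tomm5, a subunit of the mitochondrial import channel, with 26.9, 27.9, 22.3, 19.9, 14.8 and 15.6 CPM. Neither isoform carries the name Ube2c or Fbxo10. Otud5 isoform STRG.57183.6 had 40.2, 24.8, 37.8, 45.5, 57.8 and 67.7 CPM, Trim33 isoform STRG.10688.2.1 had 1.65, 0.348, 3.79, 3.83, 12.4 and 10.3 CPM, and Fbxo11 isoform STRG.23486.2 had 0.444, 0, 0.552, 1.83, 3.05 and 1.79 CPM. In these 3 isoforms every SHR library was above every BNLx library.

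The 3′ ends added by aptardi fell on 65 of the 152 members. They gave 208 isoforms, of which 88 were shorter than the original transcript (median shift -1180 bases) and 120 longer (median 1186 bases). The share of shorter ones was 42.3%, against 64.6% of 11559 aptardi isoforms in the whole annotation and 45.9% of the 6111 at loci with a gene name. Several isoforms can share an end, and counted once each there were 108 distinct ends, 36 of them only shortening, 55 only lengthening and 17 both. Tested members carried an aptardi isoform in 45.8% of loci, and all tested genes in 29.4%, where members all have a gene name and most other loci have none. The aptardi isoforms held 21.4% to 23.5% of the members' counts in the 6 libraries, and 19.3% to 20.5% of all counts, with no separation of the strains.

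The genes of the pathway outside the name rule were read from 7 lists of 174 symbols, of which 72 have a named and tested locus outside the members, while Uba1 shares the locus of the member Usp11. Of the 72, edgeR called none, where 1.02% of all genes were called, and 4 had an unadjusted p under 0.05, where 10.2% of all genes did. DESeq2 called none, where it called 3.76% of all genes. In SHR 24 were higher and 48 lower, where 49.9% of all genes were lower. Rps27a, a ribosomal protein gene that also encodes ubiquitin, was the only 1 of 4 ubiquitin precursor genes found, at 797 TPM, with a log2 fold change of -0.18 (edgeR adjusted p of 0.858). The activating enzymes had 3 of 8 found at loci of their own, 1 higher and 2 lower. Of the partners of cullins, 16 of 39 were found, 5 higher and 11 lower, among them the COP9 signalosome subunit Cops2 (-0.31, unadjusted p of 0.0451 in edgeR). HECT and other ligases had 25 of 63 found, 7 higher and 18 lower, with Pja2 and Pja1, ligases abundant in brain, at 409 and 385 TPM. Vcp, the segregase that pulls marked proteins from complexes, was at 222 TPM with a log2 fold change of -0.07. The other removing enzymes had 11 of 27 found, and Senp8, which processes NEDD8, had the lowest p of all lists (0.61, unadjusted p of 0.0134 and adjusted p of 0.299 in edgeR). Shuttles and segregases had 10 of 23 found, 4 higher and 6 lower, and the proteasome accessories had 6 of 10 found, 2 higher and 4 lower.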

How the data were processed

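Whole brain polyA RNA of 3 BNLx and 3 SHR rats was sequenced as unstranded paired reads. The authors trimmed the reads with cutadapt, aligned each strain with HISAT2 to its own genome made from rn6, merged the alignments, assembled 1 transcriptome (StringTie 1.3.5, with Ensembl as a guide), let aptardi 1.0.0 predict further 3′ ends and quantified every library with RSEM. Whether RSEM read rn6 or each strain's genome is not given in the sources used here, so an effect of strain variants on the SHR values was not tested. The deposited expected counts per gene and isoform are RSEM estimates by the authors without normalization, which split reads shared by several isoforms or copies, and the deposited TPM values were scaled by the authors' RSEM run within each library. Transcript positions are from the deposited annotation (rn6). Levels between genes are given in TPM, and levels of a gene between libraries in CPM scaled by TMM.

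Rounded expected counts were tested in edgeR 4.0.16 (R 4.3.3) by quasi-likelihood, two-sided, with TMM scaling and no term but strain, over all genes or isoforms that reached 50 counts in 2 libraries of either strain. Genes were called at a Benjamini-Hochberg adjusted p of 0.05, isoforms at the study's unadjusted p of 0.001, and isoform usage at an adjusted p of 0.05 with diffSpliceDGE. On simulated counts made from these libraries, most loci that diffSpliceDGE called were unchanged ones. Alternatives were DESeq2 1.42.0, limma 3.58.1 on log2(TPM + 1), log2(TPM + 0.1) and voom weights, size factors by the median of ratios (RLE), other filters, the replicate number as a block, and left-out libraries. The members, the lists and the choice of both libraries to leave out together were made with earlier results of these data known. Genes are named in the text for a call, for the lowest 4 p-values in a group (mean of at least 100 counts), for the 10 lowest usage p-values, for the 3 highest TPM in a group, or from a list of well-known members. Genes named beyond that, such as Usp5, Rnf208, Klhl13, Klhl34, Rnf128, Rnf103, Usp24 and Ube2h, were chosen after their values were seen. The marker sum of 1 further cell type is not reported here. Promoter sequences are from RefSeq (GRCr8). The authors' filtered table repeats isoform counts and was not used here. Depth sets the 95% intervals only through the spread between libraries, and limits from 3 counts cover counting error only.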

Additional observations from a re-analysis of the deposited data

How the results depend on the processing

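At the gene level, 0 members were called by edgeR with all libraries, and again with RLE size factors, other filters, limma on TPM, the replicate block and each library left out. The replicate block called 0 of all 14471 genes, and single libraries left out called between 20 and 152 of all genes against 147 with all libraries, so a count of 0 members there says little of the members. DESeq2 called 2 members, and 44 were called without SHR 1 and BNLx 3 together. At the isoform level the count of 1 became 4 with DESeq2, 2 with the filterByExpr filter, 2 with limma on log2(TPM + 0.1), 3 with limma on log2(TPM + 1), 2 with no filter on counts, 10 without SHR 1 and BNLx 3, and 0 at an adjusted p of 0.05. Leaving out single libraries gave 0 to 2 isoforms. For isoform usage the count of 1 became 3 with limma voom, 2 with no filter on counts and 35 without SHR 1 and BNLx 3, and 1 to 12 when single libraries were left out, with 12 without SHR replicate 1 and 7 without BNLx replicate 3. Of all isoforms, edgeR called 1.00%, DESeq2 3.63%, and edgeR without SHR 1 and BNLx 3 called 3.88%. Of all loci, diffSpliceDGE called 4.37%, limma voom 2.22%, and diffSpliceDGE without SHR 1 and BNLx 3 called 28.3%. For the other isoform and usage settings the share over all features is not given, so those counts are not read as results about the members. Deviations from the strain mean correlated at r = -0.04, 0.32 and -0.20 between samples with the same number. Between samples with different numbers r ran from -0.33 to 0.25. Deviations within 3 libraries depend on one another, so whether the numbers pair the samples cannot be told from these values. The replicate block gave 0 genes, 0 isoforms and 0 usage calls. Over the 16 genes named for their p, 208 alternative values kept their direction and their side of the threshold, 14 passed it and 2 reversed. Those 2 were Ube2j1, which turned from -0.28 to 0.0738 under limma on log2(TPM + 0.1) and to 0.0733 on log2(TPM + 1), and the cause was not tested. Group medians moved by more than the spread in 7 alternatives and not in 49. The proteasome median was -0.07 on log2(TPM + 1), where the median of all genes was 0.07. Library depth differs by over 3 times between libraries, so low isoforms are least certain in BNLx replicates 2 and 3.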
